A study of Mus musculus with 2 samples.

Results

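Brain endothelium markers are 10 genes, Cldn5, Esam, Cdh5, Pecam1, Flt1, Kdr, Tek, Slco1c1, Abcb1a and Mfsd2a, out of 18193 genes with a probe set of their own on the array. They were followed through every probe set whose single annotated symbol was one of these names, 15 probe sets in all, on 2 arrays of mouse cerebral cortex. The first array carried an equal mixture of RNA from 3 wild-type male mice, 4 weeks old. The second carried such a mixture from 3 males of the same age whose sample title says KO, which the series title gives as knockout of Gnmt. Their genotype entry reads wild-type, so this pool is called KO-titled here. Both pools shared the 129/B6 strain background. Gnmt encodes glycine N-methyltransferase, which methylates glycine; how the allele was made is not stated in the labels. With 1 array for each group there was no replicate, so no difference below was tested, and the precision of all values is limited by having so few arrays.

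Endothelial cells line the blood vessels. In the brain they form the blood-brain barrier: claudins and cadherins seal neighbouring cells together, few vesicles cross the cell, and transport proteins admit nutrients and hormones or pump foreign compounds back to the blood. Vascular endothelial growth factor (VEGF) and angiopoietins act on tyrosine kinase receptors of these cells, and Wnt ligands from neural cells maintain barrier gene expression.

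Signals are the deposited linear intensities, in units on a scale where the trimmed mean of each array is 500.0. The floor for calling a probe set measured was 64.2 units, the 40th percentile of all signals that were not controls. The arrays differed in their lower signals. The median signal was 92 units on the wild-type array and 124.9 units on the KO-titled array, and 56.9% and 63.1% of signals reached the floor. A ratio is the log2 of KO-titled over wild-type signal, centred on the median of all measured probe sets. Probe sets of the same gene differed in this ratio with an SD of 0.58 per probe set (from 5375 genes with at least 2 measured probe sets), or 1.49-fold. That error covers probe sets on the same RNA and leaves out the spread between mice and between pools. Signals of different genes depend on their probes and are not compared as amounts of RNA. Summed signals of a gene list, where given, mostly follow its brightest probe sets.

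Most endothelial markers gave signals within 1.5-fold of each other in the 2 pools, 7 of the 9 that were measured on both arrays by their brightest probe set. Slco1c1 and Abcb1a were at least 1.5-fold apart, both lower in the KO-titled pool (Abcb1a by only 1 of its 2 probe sets), and Pecam1 was not measured. This count of 2 of 9 lower stands beside 18.2% of all 12244 measured genes, and the count of 0 higher beside 12.5%. At 2-fold no marker was lower, beside 6.75% of all genes, or higher, beside 3.47%. The median ratio was -0.05 over the 9 genes and -0.06 over all genes, with 5 markers below 0 and 4 above. Ratios of the markers ran from -0.67 to 0.53 with an SD of 0.40, against 0.64 over all genes. The middle 50% of the markers lay between -0.31 and 0.18, and that of all genes between -0.44 and 0.31. For 7 of the 9 the ratio was smaller than the probe set error, as it was for 68.7% of all genes. Each array holds RNA of mixed tissue labelled cortex, and the admixed tissue was not equal. The summed signal of pituitary hormone genes was 31370 units for wild-type RNA and 726.3 for KO-titled RNA. For any marker, a difference in endothelial cell number, in RNA per endothelial cell or in admixed tissue cannot be told apart.

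**Figure D1:**
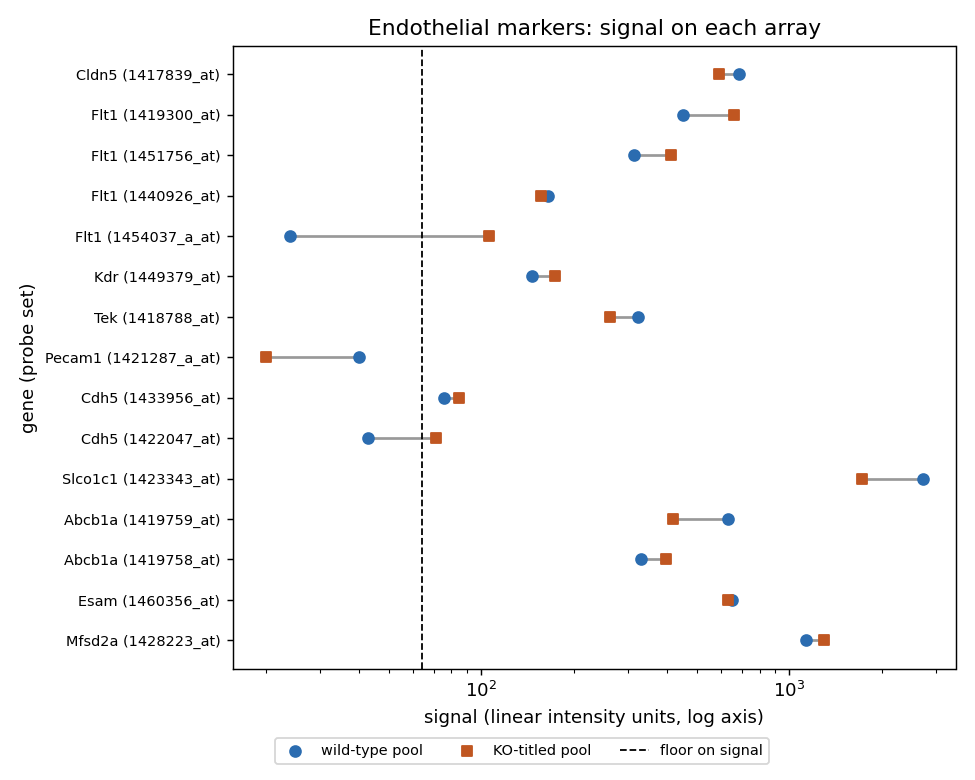
Signal of each of the 15 probe sets of the endothelial markers (linear intensity units on a log axis) in the wild-type pool (circles) and the KO-titled pool (squares), joined by a line, with the floor of 64.2 units dashed. The pair of points lies close together for most probe sets; Slco1c1 and 1 Abcb1a probe set are farther left in the KO-titled pool, and the Pecam1 probe set is below the floor in both.

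The junction genes with a ratio were between 1.04-fold and 1.18-fold apart. Cldn5 encodes claudin-5, the main tight junction protein of brain endothelium. Its probe set gave 688.5 units for wild-type RNA and 589.5 units for KO-titled RNA, a ratio of -0.24, or 1.18-fold lower. Of all measured genes, 37.4% had a lower ratio than Cldn5. Esam, an adhesion molecule of the immunoglobulin family found at endothelial tight junctions, gave 651.3 and 632.6 units in the same order. The Esam ratio of -0.05 was close to the middle of all genes, 50.4% of which lay below it.

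The other junction markers lay near or below the floor. Cdh5 encodes VE-cadherin, the cadherin of endothelial adherens junctions. Its brighter probe set gave 75.8 units for wild-type and 84.7 units for KO-titled RNA, a ratio of 0.15 at signals only 1.18 and 1.32 times the floor. Its second probe set gave 43.0 and 71.4 units, which passed the floor for the KO-titled pool alone and is at least 1.10-fold higher there. Both Cdh5 probe sets were thus a little brighter in the KO-titled pool, although the ratio of the brighter one was -0.29 when the arrays were quantile normalized. The median signal was likewise higher on the KO-titled array, 124.9 against 92 units. This direction can therefore not be read as particular to Cdh5. Pecam1 encodes CD31, an adhesion molecule of endothelium that platelets and leukocytes also carry. Its probe set gave 40.2 and 20.0 units, below the floor in both pools, so no ratio is given for Pecam1.

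The VEGF receptor genes lay on the higher side and the angiopoietin receptor gene on the lower side, all within 1.5-fold by their brightest probe sets. Flt1 encodes VEGF receptor 1, which binds VEGF tightly and, in its soluble form, acts as a decoy. Its brightest probe set (1419300_at) gave 451.6 units with wild-type RNA and 658.9 units with KO-titled RNA. The ratio of 0.53, or 1.45-fold higher, was the highest of the 9 markers and lay above 85.8% of all genes. The next probe set (1451756_at) gave 313.9 and 412.3 units, a ratio of 0.38. The next dimmer one (1440926_at) went the other way, with 165.2 and 156.1 units and a ratio of -0.09. The fourth (1454037_a_at) gave 23.9 units for wild-type RNA, under the floor, and 106.1 units for KO-titled RNA, at least 1.64-fold higher. Of the 4 Flt1 probe sets, 3 were therefore brighter in the KO-titled pool, and the measured ones spanned 0.63 in log2. On the whole array more signals reached the floor in the KO-titled pool, 63.1% against 56.9%. The direction of the fourth probe set can therefore not be read as particular to Flt1. The transcript form that each probe set reads was not examined.

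Kdr encodes VEGF receptor 2, the main signalling receptor for VEGF on endothelium. Its single probe set gave 146.0 units for wild-type and 173.6 units for KO-titled RNA, a ratio of 0.24. Under quantile normalization the Kdr ratio was -0.12, so its direction depended on the scaling. Tek encodes TIE2, the receptor of the angiopoietins, which steadies the contact between endothelium and pericytes. The Tek probe set gave 322.6 and 261.9 units, 1.24-fold lower in the KO-titled pool, with a ratio of -0.31. Of all genes, 32.3% had a lower ratio than Tek. The Tek ratio stayed below 0 under each of the 8 alternatives that gave it a value, between -0.50 and -0.26.

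Among the transporters, Slco1c1 and Abcb1a had the lowest ratios of the 9 markers and Mfsd2a a ratio slightly above 0. Slco1c1 encodes OATP1C1, which carries thyroxine across the barrier and is also made by astrocytes. Its probe set gave 2708 units for wild-type RNA and 1715 units for KO-titled RNA, 42.2 and 26.7 times the floor. The ratio of -0.67, or 1.59-fold lower, was the lowest of the markers, and 15.0% of all genes lay below it. It kept its side of 1.5-fold under all 8 alternatives with a value, between -0.78 and -0.60. Slco1c1 had no other probe set here. Of 12 astrocyte markers, 4 were at least 1.5-fold lower and 0 higher, beside 18.2% and 12.5% of all genes. S100b and Gfap were 2.34-fold and Aqp4 2.19-fold lower, the last with another probe set at 1.60. The summed signal was 90618 units for wild-type and 89404 for KO-titled RNA. Slc1a2 made up 23617 and 26502 units of these sums and Aldoc 22245 and 21409, so the sums say little about the dimmer genes. The 3 measured Slc1a2 probe sets ran from -0.33 to 3.88. The astrocyte median of -0.09 was 0.29 by second brightest probe sets, 0.02 with loess and -0.28 without suffixed probe sets, so its direction depended on the setting. None of the 12 was below the floor on either array, and their part in the Slco1c1 value was not tested.

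Abcb1a encodes a P-glycoprotein, the efflux pump that keeps many drugs out of the brain. Its brighter probe set (1419759_at) gave 634.2 and 420.5 units, 1.52-fold lower in the KO-titled pool with a ratio of -0.60, only 0.02 past the 1.5-fold line. Its other probe set (1419758_at) gave 329.6 and 398.8 units, a ratio of 0.26 in the opposite direction. The 2 readings of the same RNA differed by 0.87, close to the SD of 0.82 for such differences over all genes. The direction of Abcb1a thus differs between its probe sets. Its close paralog Abcb1b was below the floor on both arrays, at 56.4 and 40.9 units, and which of the pair each probe set binds was not examined.

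Mfsd2a encodes the carrier of lysophosphatidylcholine with docosahexaenoic acid, which also restrains vesicle transport in brain endothelium. Its probe set gave 1133 units for wild-type RNA and 1292 units for KO-titled RNA, a ratio of 0.18, or 1.13-fold higher. The Mfsd2a ratio stayed above 0 under its 8 alternatives, between 0.07 and 0.24. The 3 transporter markers thus had no common direction.

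Sequences before the start sites are shown for Slco1c1 and Abcb1a, the markers past 1.5-fold, and for Cldn5. These are the markers whose stretch in the table lies outside the annotated gene. ETS factors, which bind a GGAA core, are known regulators of endothelial genes. Promoters of 7 of the 10 markers were in the RefSeq table (GRCm38.p6), each taken as the 250 bases before a start site and written in the direction of the gene. The other 4 overlap the annotated gene and are not shown, Flt1 and Kdr by all 250 bases, Tek by 203 and Mfsd2a by 6. Capitals mark GGAA on either strand, so that TTCC is the same core on the opposite strand. The stretches, all on the plus strand, are chr6:141524104-141524353 for Slco1c1, chr5:8566841-8567090 for Abcb1a and chr16:18776597-18776846 for Cldn5.
Slco1c1: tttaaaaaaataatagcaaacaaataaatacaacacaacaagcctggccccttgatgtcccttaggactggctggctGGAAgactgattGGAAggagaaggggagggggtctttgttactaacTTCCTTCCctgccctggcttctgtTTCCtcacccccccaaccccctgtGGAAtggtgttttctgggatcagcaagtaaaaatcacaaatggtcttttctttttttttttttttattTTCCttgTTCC
Abcb1a: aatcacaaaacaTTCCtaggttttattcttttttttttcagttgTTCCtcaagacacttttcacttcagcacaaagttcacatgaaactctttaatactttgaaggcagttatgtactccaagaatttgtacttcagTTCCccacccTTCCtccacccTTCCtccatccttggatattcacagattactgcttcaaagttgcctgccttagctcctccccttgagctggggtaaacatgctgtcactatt
Cldn5: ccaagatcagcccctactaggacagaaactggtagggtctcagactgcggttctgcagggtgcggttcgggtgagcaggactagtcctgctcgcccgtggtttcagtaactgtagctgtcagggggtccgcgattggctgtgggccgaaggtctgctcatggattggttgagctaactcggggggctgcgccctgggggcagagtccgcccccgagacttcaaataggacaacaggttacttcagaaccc
Slco1c1 holds 8 such cores, Abcb1a 5 and Cldn5 0, where 93.4% of all 32851 promoters of this length hold at least 1. The longer forms CAGGAA and CCGGAA, which contain the core, were in 25.7% and 12.03% of all promoters and in none of these 3. Among the 7 markers CAGGAA was found in Tek, at 89 to 84 and again at 59 to 54 bases before the start, and CCGGAA in Kdr, at 153 to 148 bases. The SOX letters AACAAT, on either strand in 9.42% of all promoters, were in Tek alone among the 7, at 63 to 58 bases, overlapping its second CAGGAA. These Tek and Kdr matches all lie inside the annotated gene. The core GGAA was added to the search after the values were seen. Matches are a description of the letters and no evidence of binding, and a stretch without them says nothing about the factor.

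**Figure D2:**
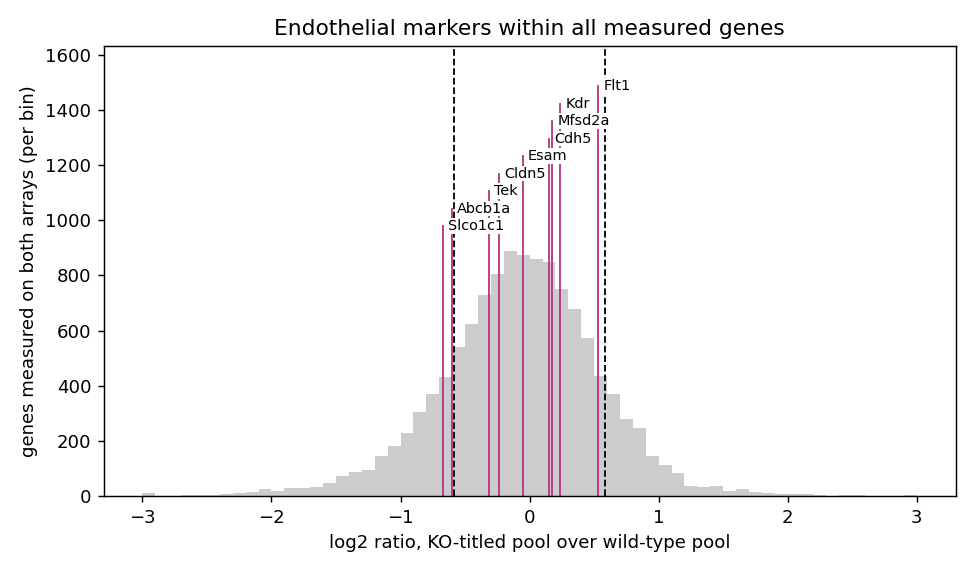
Log2 ratios of the 9 measured endothelial markers by their brightest probe sets (vertical lines; heights only separate the names) over the distribution of all 12244 measured genes (grey, genes per bin, with values beyond -3 or 3 in the end bins). The dashed lines mark 1.5-fold; Slco1c1 and Abcb1a lie just outside on the lower side, and Flt1 just inside on the higher side.

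Counted by probe set, the markers were evenly divided. Of the 15 probe sets, 12 were measured on both arrays, 2 in the KO-titled pool alone and 1 in neither. Among signals of the whole array, 63.1% reached the floor in the KO-titled pool and 56.9% in the wild-type pool. Of the 12, 6 had ratios above 0 and 6 below, with a median of 0.05. At 1.5-fold, 2 were lower, beside 18.1% of all 20967 measured probe sets with 1 gene, and 0 were higher, beside 16.5%. Only Flt1, Abcb1a and Cdh5 had more than 1 probe set, so 7 of the 10 genes rest on a single reading.

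Slco1c1, Cldn5, Tek, Flt1 and Mfsd2a kept their direction under each alternative that gave them a value. Slco1c1, Cldn5, Tek and Mfsd2a have 1 probe set each, so the choice of probe set could not turn them. No alternative reads Flt1 by its dimmest measured probe set alone, which was at -0.09. Abcb1a turned with its second probe set, Kdr and Cdh5 turned under quantile normalization, and Esam, at -0.05, reached 0.00 with the floor at the 60th percentile.

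**Figure D3:**
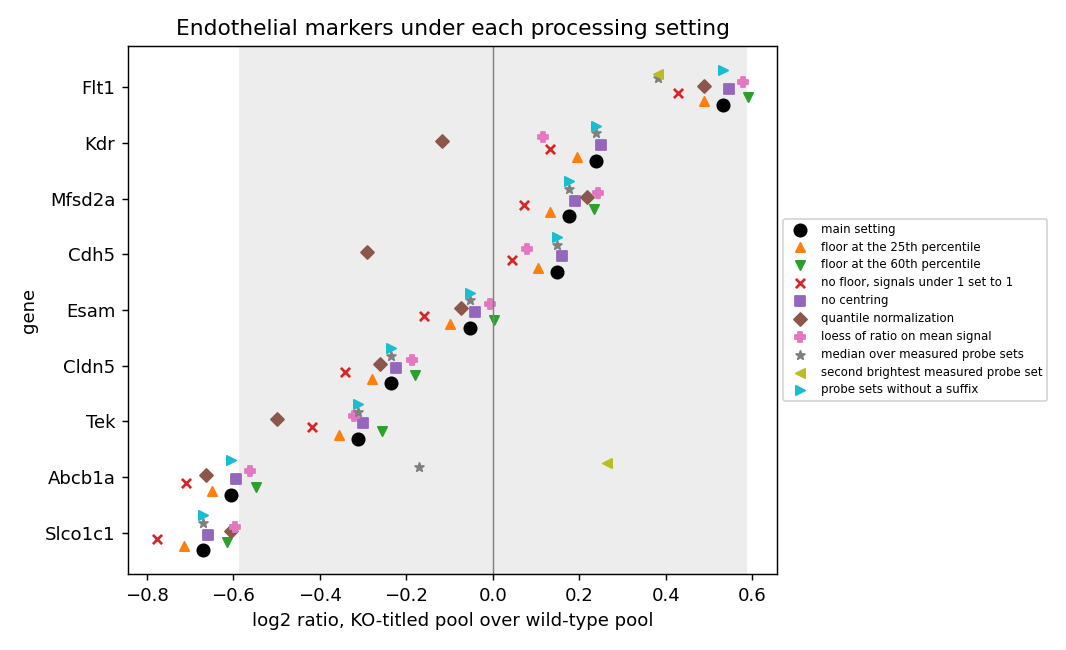
Log2 ratio of each measured endothelial marker under the main setting (black circles) and 9 alternatives (other symbols, offset vertically for legibility; grey marks the span within 1.5-fold). Slco1c1 stays left of the grey span under each alternative that gives it a value, Abcb1a crosses 0 with its second probe set, and Kdr and Cdh5 cross 0 under quantile normalization.

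Other endothelial genes, listed with the markers' roles in mind, also had a median near 0, while their lists differed. Of 89 such genes in 4 lists, 72 were measured on both arrays. Of these, 15.3% (11 genes) were at least 1.5-fold lower and 6.94% (5 genes) higher, beside 18.2% and 12.5% of all genes. The median of the 72 was -0.03. Among 12 other junction genes 0 passed 1.5-fold, like Cldn5, Esam and Cdh5; Ocln (occludin) was highest at 0.50 and F11r lowest at -0.38. Among 20 other barrier transport genes, 2 were higher and 0 lower; the median of 0.28 was 0.11 without a floor. The taurine transporter gene Slc6a6 was 2.29-fold and the insulin receptor gene Insr 1.79-fold higher. Among 22 other surface and vesicle genes of endothelium, 10 were lower and 1 higher, so this list held 10 of the 11 lower genes. The median of these surface genes was -0.42, but -0.25 with the floor at the 60th percentile and -0.17 over the 10 that had a second probe set, read through it. Palmd was 3.24-fold, Emcn (endomucin) 2.71-fold and Adgrf5 2.70-fold lower, the last with another probe set at 0.08, whereas Vwf (von Willebrand factor) was 1.89-fold higher. Icam2 and Ecscr reached the floor for wild-type RNA only and were at least 2.17-fold and 2.19-fold lower in KO-titled RNA. Tie1, the TEK-related receptor gene, reached it for KO-titled RNA only and was at least 1.91-fold higher. Of 18 endothelial transcription factor genes, 2 were higher and 1 lower. Mecom reached the floor for wild-type RNA only and was at least 2.07-fold lower, and Lef1 for KO-titled RNA only and was at least 2.33-fold higher. Sox18 was 2.32-fold lower, and Ets1 was 2.33-fold higher with another probe set at -0.49.

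Ligands and partners of the receptor markers went in both directions. In the list of VEGF and angiopoietin ligands, co-receptors and signalling partners, 3 of 16 measured genes passed 1.5-fold upward and 4 downward. Of all genes, 12.5% were higher and 18.2% lower, shares that stand beside each count in this paragraph. Vegfa, the main ligand of Flt1 and Kdr, gave 845.0 units for wild-type and 710.2 units for KO-titled RNA, a ratio of -0.26. Angpt1, the activating ligand of TIE2, was 2.16-fold lower, at 255.7 and 119.6 units, beside the Tek ratio of -0.31. Nrp1, a VEGF co-receptor gene, was 2.63-fold lower by its brightest probe set, yet its 4 probe sets ran from -1.39 to 2.41. Vegfd was 2.11-fold higher. Vegfa was chosen for its place in the pathway and the others as the ends of the list. For Wnt signalling to the barrier, 3 of 14 genes were higher and 1 lower. Their median of 0.28 was 0.11 by the median over probe sets and at most 0.35 under the other alternatives. The co-receptor gene Reck was 1.92-fold higher and the ligand gene Wnt7a 1.59-fold lower. For Notch signalling, 4 of 12 were higher and 0 lower (median 0.30), with Notch1 2.83-fold higher.

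The gene lists of the vessel wall around the endothelium depended on the setting. Beside 12.5% higher and 18.2% lower among all genes, 2 of 13 pericyte and smooth muscle genes were higher and 1 lower. Their median of -0.03 lay between -0.17 and 0.61 under the alternatives, the highest by the second probe sets of 6 of them. The pericyte receptor gene Pdgfrb was 1.55-fold higher and the smooth muscle gene Tagln 2.99-fold lower. Kcnj8, a potassium channel gene of pericytes, gave 187.3 and 48.4 units, under the floor for KO-titled RNA and at least 2.94-fold lower there. Basement membrane genes had 1 of 16 higher and 3 lower with a median of -0.02 (-0.07 to 0.21 under the alternatives), with the laminin gene Lamb1 3.80-fold lower.

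**Figure D4:**
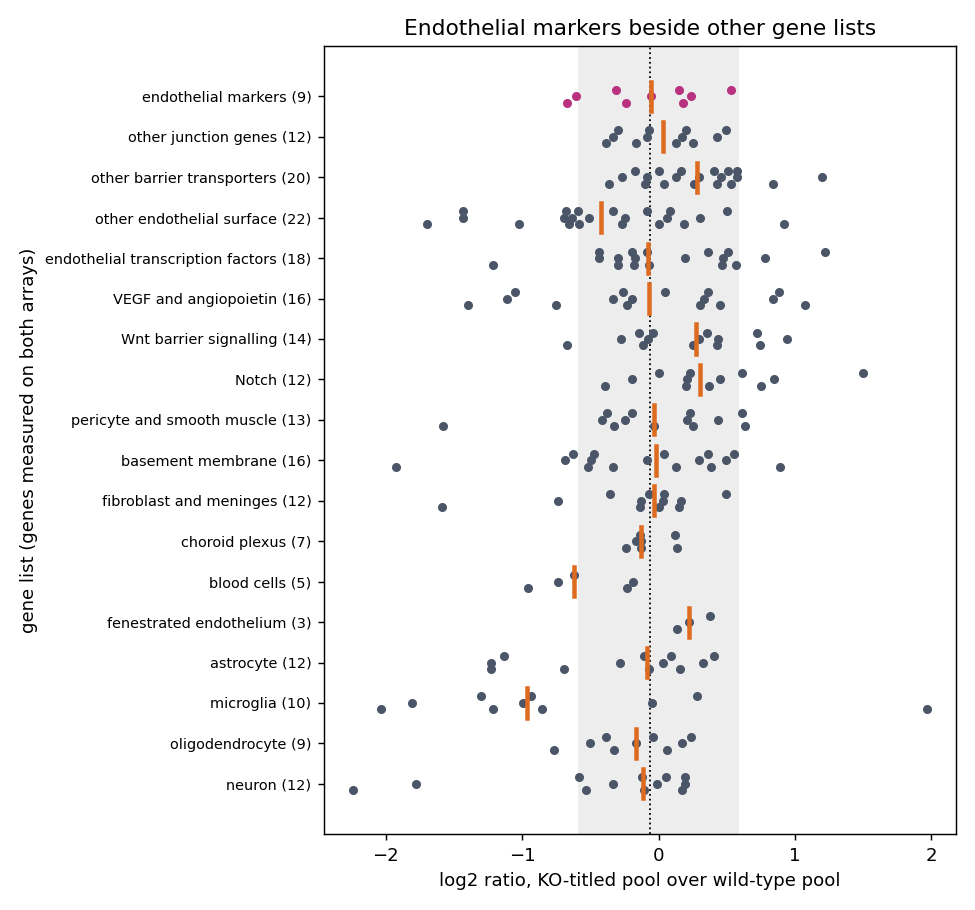
Log2 ratios of measured genes (points, brightest probe sets) in the endothelial markers and in 17 other gene lists, with the median of each list (orange bar), the span within 1.5-fold (grey) and the median of all genes (dotted line). The 9 endothelial markers stay between -0.67 and 0.53, while the microglia genes have a median of -0.96; the pituitary hormone genes, which reach -6.87, are off this axis and not drawn.

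Marker signals of the pituitary and of most microglia genes were unequal between the pools. Of 7 pituitary hormone genes, 3 were measured on both arrays and 3 in the wild-type pool alone; their summed signal was 31370 units for wild-type RNA and 726.3 for KO-titled RNA. The pituitary has vessels of the fenestrated kind, whose defining marker Plvap gave 375.8 and 491.5 units, a ratio of 0.38. Which vessels gave the Plvap signal was not examined. Of 6 genes of fenestrated endothelium, 3 were measured and 0 passed 1.5-fold. Microglia genes had 7 of 10 lower and 1 higher, where 18.2% of all genes were lower and 12.5% higher. Summed signals of the microglia genes were 13793 and 11314 units. Csf1r made up 6390 and 7830 units of these sums, and its 3 measured probe sets ran from -0.70 to 0.28. Fcrls was 4.10-fold, C1qa 3.50-fold and P2ry12 2.46-fold lower. Cx3cr1, the 1 higher gene, was 3.91-fold higher, at 87.2 and 343.6 units. Of the 11 genes on the array, 1 (Trem2) reached the floor with wild-type RNA only. Blood cell and platelet genes, of interest for Pecam1, had 3 of 5 lower and 0 higher. The red cell gene Hba-a1 was below the floor on both arrays, but the red cell gene Alas2 gave 252.4 and 217 units. The part of these tissues in the marker values was not tested. Choroid plexus genes, another barrier tissue, had 0 of 7 past 1.5-fold. All 12 neuronal genes were above the floor on both arrays, with Snap25 at 28237 and 26418 units. They check for neural tissue and not for its region. Of the 12, 2 were at least 1.5-fold lower and 0 higher, beside 18.2% and 12.5% of all genes. Nefm was 4.73-fold and Nefl 3.44-fold lower. The single Gnmt probe set gave 10 and 21.5 units, below the floor in both pools, so it did not check the titles.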

How the data were processed

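Total RNA of cerebral cortex from 3 mice per group was pooled and, per the labels' protocols, extracted with Trizol and labelled with biotin from 5 micrograms for Affymetrix arrays. The deposited values are linear intensities, 1 per probe set, scaled to a common trimmed mean; the submitters' processing notes name GCOS, the Affymetrix software, without a version. No signal algorithm was stated there. Of 45101 probe sets, 64 were controls. Of the others, 34945 had 1 gene symbol in the platform annotation, 932 several and 9160 none; 34741 took a current symbol from RefSeq (GRCm38.p6) by gene identifier.

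A probe set was measured when both signals reached the floor, as for 23928. Log2 ratios were centred by subtracting 0.01. Each gene was read through its brightest probe set (mean log2 signal). A gene below the floor on 1 array has a bound against the floor, centred alike. Counts of list genes use 1.5-fold. The markers and lists were chosen with earlier results of these data known. All markers are named. Genes of other lists come from the highest and lowest, up to 3 at either end past 1.5-fold, and bounds over 1.5-fold. Vegfa, Trem2, Csf1r, Hba-a1, Alas2, Slc1a2, Aldoc, Snap25 and Abcb1b were named for their role or signal after their values were seen. The calculation was tested on simulated data. Alternatives covered the floor, scaling, probe set and fold. Software was matplotlib 3.10.9, statsmodels 0.14.6, scipy 1.17.1, pandas 2.3.3 and numpy 2.4.6 under Python 3.11.15.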

Additional observations from a re-analysis of the deposited data

How the results depend on the processing

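No paired analysis was possible because each group holds 1 array. A marker value is called moved when it differs from the main one by more than the probe set error of 0.58, which is no replicate spread. Of 72 marker ratios under alternatives, 71 moved by less than this error. The exception was Abcb1a by its second brightest probe set (0.26). This count is no test of robustness, because many of the 72 could hardly move. Leaving out suffixed probe sets changed no marker, and the median over probe sets changed none with 1 measured probe set. Other floors, no floor and no centring each shifted all markers by the same small amount. Directions turned for Abcb1a there, for Kdr (-0.12) and Cdh5 (-0.29) under quantile normalization, and for Esam (0.00) with the floor at the 60th percentile. The number of markers at least 1.5-fold lower was 2, and 1 with the floor at the 60th percentile (7 markers measured), with loess and with the median of probe sets. It was 3 of 10 without a floor, Pecam1 included at -1.12, where 27.2% of all genes were lower. It was 0 by second brightest probe sets, which exist for 2 markers, and 0 at 2-fold. The number higher was 0, and 1 (Flt1, at 0.59) with the floor at the 60th percentile. The marker median was -0.25 without a floor, -0.26 under quantile normalization, -0.18 with the floor at the 60th percentile and 0.32 by second brightest probe sets (2 markers). The median for all genes stayed between -0.14 and -0.01. Of all genes, 19.4% were higher by second brightest probe sets; at 2-fold 3.47% were higher and 6.75% lower. The causes of these differences were not tested. The lowest signals limit Cdh5, Kdr and Pecam1 most.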
